A study of Mus musculus with 12 samples.

Results

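The genes described here encode the SLC25 family of solute carriers, chosen as the rows of the count matrix whose symbol begins with *Slc25a* and a number and which held at least 10 counts in every library. The pattern matched 48 of 55471 genes, and 39 met the count floor. Of the 9 rows below it, *Slc25a18* (0 to 6 counts per library), *Slc25a21* (0 to 2), *Slc25a31* (0 to 11), *Slc25a41* (0 to 2), *Slc25a48* (0 to 3) and *Slc25a54* (0 to 2) were close to undetected, *Slc25a27* (5 to 17) and *Slc25a34* (5 to 45) were low, and *Slc25a5-ps* (8 to 23) is a transcribed processed pseudogene of *Slc25a5*. The rule itself used no measured difference between groups, but the members were chosen with earlier results of these data known.

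SLC25 proteins are built from a repeated pair of membrane helices that surround a central substrate site, and most of them exchange a metabolite across the inner mitochondrial membrane, which small charged molecules cannot otherwise cross. Through them the matrix takes up ADP, phosphate, glutamate, carnitine esters, glutathione, iron, NAD and other cofactors, and exports ATP, citrate and aspartate. The family has members outside this scheme: SLC25A17 lies in the peroxisomal membrane and SLC25A46 in the outer mitochondrial membrane, where it shapes the organelle. PGC-1β, encoded by *Ppargc1b*, is a transcriptional co-activator known for promoting genes of mitochondrial oxidative metabolism.

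Dendritic cells (DCs) were grown from C57BL/6 mouse bone marrow in GM-CSF, the growth factor of granulocytes and macrophages, and infected with a retrovirus whose short hairpin RNA targeted either firefly luciferase, a gene mouse cells lack (shControl), or *Ppargc1b* itself (sh*Ppargc1b*). Both kinds of cells were exposed to the vector and sorted on its human CD8 reporter. Each kind of cell was left unstimulated or received interferon-β (IFN-β), a type I interferon, for 6 h, which gave 4 groups of 3 libraries. The knockdown rests on 1 hairpin per library, the labels do not name which of the study's hairpins was used, and they do not say whether the libraries came from separate cultures or mice, so the p-values below measure only the spread between these libraries.

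Each library held 49919648 to 77726101 counted read pairs. *Ppargc1b* itself was measured at 33.3 to 36.7 CPM (counts scaled to a common library size, here adjusted by TMM) in unstimulated shControl DCs and at 18.6 to 20.3 in unstimulated sh*Ppargc1b* DCs. With IFN-β it was measured at 23.6 to 31.4 in shControl and at 15.5 to 20.9 in sh*Ppargc1b* DCs, so the knockdown left part of the transcript in place and the groups did not overlap. Fold changes below are log2 differences ± standard error (SE) from edgeR's quasi-likelihood fit over all 12 libraries, and a member is said to rise or fall where its p-value, adjusted by Benjamini-Hochberg over 18228 tested genes, was under 0.05. In bulk RNA, fewer cells of a type and less RNA per cell cannot be told apart.

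Levels per kilobase of exon set the members apart over a wide range. *Slc25a5*, which encodes the adenine nucleotide translocase ANT2 that exchanges matrix ATP for cytosolic ADP, stood first at 167 CPM per kilobase averaged over all libraries. The next members, at far lower levels, were *Slc25a24* (28.7), a calcium-regulated carrier that exchanges ATP-Mg for phosphate, and *Slc25a3* (28.6), the phosphate carrier that supplies ATP synthase. They were followed by the citrate carrier *Slc25a1* (26.4), the 2-oxoglutarate/malate carrier *Slc25a11* (23.9), the iron importer *Slc25a37* (23.0), the other adenine nucleotide translocase *Slc25a4* (22.1) and the NAD carrier *Slc25a51* (18). *Slc25a42*, a coenzyme A carrier, was lowest at 0.251, with 34 to 179 counts per library. All members together summed to 1604 to 1642 CPM in unstimulated shControl DCs and to 1507 to 1518 in unstimulated sh*Ppargc1b* DCs. With IFN-β the sums were 1732 to 1760 and 1569 to 1642.

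**Figure D1:**
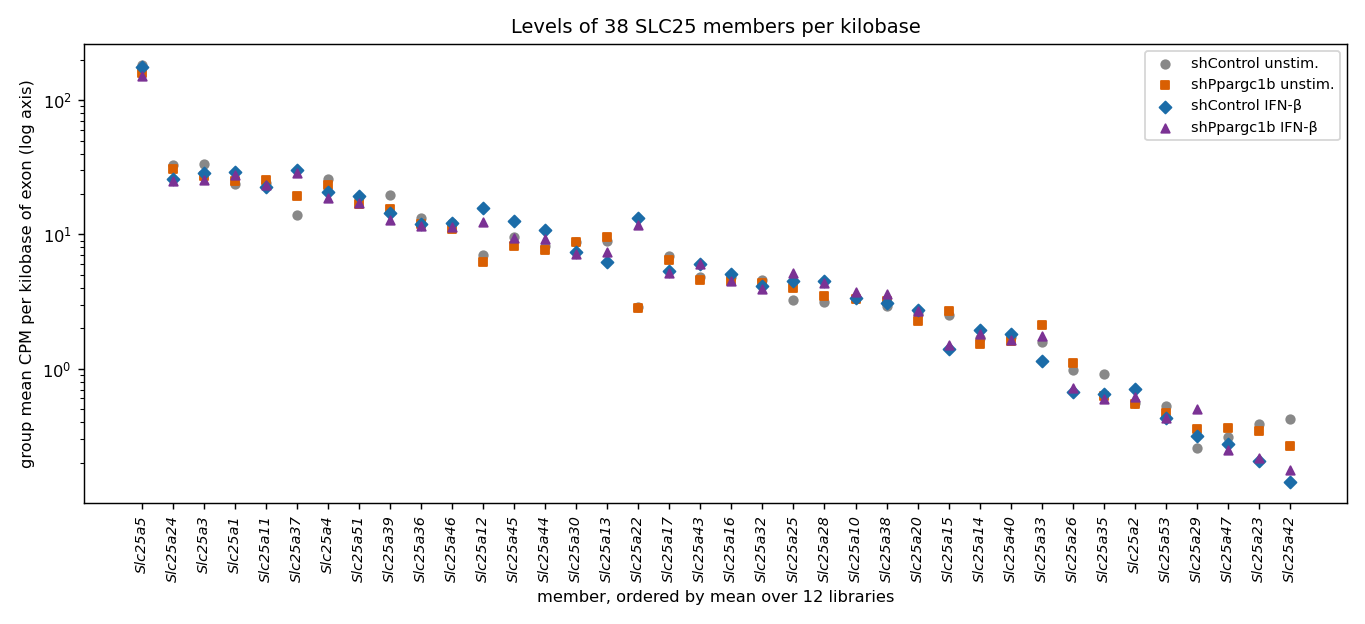
Group means of CPM per kilobase of exon (log axis) for 38 of the 39 members, ordered by their mean over 12 libraries; each symbol is 1 group of 3 libraries. *Slc25a5* stands alone at the top, and *Slc25a22*, *Slc25a12* and *Slc25a37* are the members whose IFN-β symbols lie farthest above the unstimulated ones.

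Knockdown of *Ppargc1b* in unstimulated DCs lowered most of the members that changed. Of 39 members 13 passed the test, 11 lower and 2 higher, while 23.6% of all tested genes were called, 12.4% higher and 11.1% lower. The phosphate carrier *Slc25a3*, both adenine nucleotide translocases, the NAD carrier *Slc25a51*, the glutathione carrier *Slc25a39* and the aspartate/glutamate carrier *Slc25a12* fell, and the ATP-Mg/phosphate carrier *Slc25a25* and the iron importer *Slc25a37* rose. The median log2 change was -0.10 over the members and -0.0049 over all tested genes. All called changes were below 2-fold. Libraries of one group lay wholly outside the range of the other in 6 members that were higher and 11 that were lower, against 18.4% of all tested genes in each direction (36.8% in all). Without sh*Ppargc1b* library 2 the test called 7 members, and without shControl library 2 or sh*Ppargc1b* library 3 it called 8.

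Among the nucleotide and phosphate carriers, *Slc25a3* measured 185, 179 and 193 CPM in unstimulated shControl libraries and 144, 150.2 and 156 in sh*Ppargc1b* libraries. Every knockdown library lay below every control library, and the log2 change was -0.30 ± 0.04 (adjusted p = 9.04e-05). *Slc25a5* measured 298, 290.5 and 315 CPM in shControl and 256, 257 and 274 in sh*Ppargc1b* libraries, again without overlap (-0.20 ± 0.04, adjusted p = 0.00324). *Slc25a4*, which encodes ANT1, the translocase of heart and muscle, fell by 0.16 ± 0.05 on the log2 scale (adjusted p = 0.0253), with overlapping libraries. Its call was lost without any of 4 of the 6 libraries compared (shControl 1 or 3, sh*Ppargc1b* 1 or 2), where the adjusted p was 0.0713 to 0.123. Adenine nucleotide translocase genes have processed copies in the genome, such as *Slc25a5-ps*, and reads that match several places were not counted, so the levels of both translocases are uncertain.

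The calcium-regulated ATP-Mg/phosphate carriers did not move as a block. *Slc25a25* measured 24.9, 25.2 and 26 CPM in unstimulated shControl libraries and 30.9, 31.3 and 31.9 in sh*Ppargc1b* libraries. The groups were well apart, and the log2 change was 0.31 ± 0.05 (adjusted p = 0.000371). *Slc25a24*, the most abundant of the class, measured 117, 109 and 115 against 103, 109.9 and 105, which overlapped (-0.10 ± 0.04, adjusted p = 0.103), and *Slc25a23* was too low to place (-0.17 ± 0.25, adjusted p = 0.697). An opposite-strand gene, *Naif1*, overlaps 4.82% of the exon length of *Slc25a25*, and whether counting used strand is not given in the sources used here.

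*Slc25a51* measured 105, 104 and 104 CPM in unstimulated shControl libraries and 98.2, 90.9 and 90.1 in sh*Ppargc1b* libraries (-0.17 ± 0.05, adjusted p = 0.0138), with no overlap. The coenzyme A carrier *Slc25a42* measured 1.94, 2.93 and 2.68 against 1.32, 1.81 and 1.62, which was the largest called fall (-0.66 ± 0.22, adjusted p = 0.0368) at one of the lowest levels. Other cofactor carriers did not pass: *Slc25a16* (-0.10), *Slc25a17* (-0.10), the S-adenosylmethionine carrier *Slc25a26* (0.18) and the folate and FAD carrier *Slc25a32* (-0.08). The call on *Slc25a51* was lost without sh*Ppargc1b* library 2 or 3 (adjusted p = 0.0618 and 0.069). That on *Slc25a42* was lost without shControl library 2 or 3 or sh*Ppargc1b* library 1 or 3 (0.0866 to 0.151).

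*Slc25a39*, whose product brings glutathione into the matrix, measured 52.2, 53.3 and 56.4 CPM in unstimulated shControl libraries and 44.6, 40.6 and 42.3 in sh*Ppargc1b* libraries. The groups stood apart, with a log2 change of -0.35 ± 0.06 (adjusted p = 0.000433). Its paralog *Slc25a40* changed by -0.10 ± 0.07 and did not pass (adjusted p = 0.356). Of the mitoferrins, which import iron for heme and iron-sulfur clusters, *Slc25a37* measured 84.7, 93.6 and 75.3 CPM against 122, 121 and 104, and every knockdown library lay above every control library (0.45 ± 0.10, adjusted p = 0.00428). *Slc25a28*, the more widely expressed mitoferrin, changed by 0.15 ± 0.08 (adjusted p = 0.198).

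Carriers of dicarboxylates and tricarboxylates gave no call. *Slc25a1*, which exports citrate for fatty acid synthesis, changed by 0.07 (95% interval -0.04 to 0.19). The intervals of the dicarboxylate carrier *Slc25a10* (-0.22 to 0.16) and of *Slc25a11* (-0.05 to 0.17) also held 0. Among aspartate and glutamate carriers, *Slc25a12* (AGC1, or aralar) fell by 0.17 ± 0.04 on the log2 scale (adjusted p = 0.0102), a call lost without sh*Ppargc1b* library 2 (adjusted p = 0.0546). Its paralog *Slc25a13* (AGC2, or citrin) changed by 0.11 ± 0.06 (adjusted p = 0.238) and the glutamate carrier *Slc25a22* by -0.03 ± 0.07 (adjusted p = 0.846). None of the 5 other amino acid carriers passed: the ornithine carriers *Slc25a2* (-0.02) and *Slc25a15* (0.10), the basic amino acid carrier *Slc25a29* (0.48 ± 0.28 at 21 to 79 counts), the glycine carrier *Slc25a38* (0.13) and the branched-chain amino acid carrier *Slc25a44* (-0.12). In the carnitine branch, the carnitine/acylcarnitine carrier *Slc25a20* changed by -0.17 (adjusted p = 0.074), *Slc25a45* by -0.21 (adjusted p = 0.0701, 0.0143 without shControl library 1, and 0.0343 with a block for runs of library codes) and the sparse *Slc25a47* by 0.21 (adjusted p = 0.603).

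Of the pyrimidine nucleotide carriers, *Slc25a36* fell by 0.15 ± 0.04 on the log2 scale (adjusted p = 0.0203) while *Slc25a33* measured 0.42 ± 0.16 and missed the threshold (adjusted p = 0.0626). *Slc25a33* was called higher without IFN-β-treated shControl library 1 or 3 (adjusted p = 0.0459 and 0.0328). It was also called in 4 other settings (0.0245 to 0.042), the lowest with a block for runs of library codes. The orphan carrier *Slc25a35* measured 3.55, 3.51 and 3.03 CPM in unstimulated shControl libraries and 2.44, 2.22 and 2.29 in sh*Ppargc1b* libraries (-0.54 ± 0.15, adjusted p = 0.0153). An opposite-strand gene, *Rangrf*, overlaps 31.3% of its exon length, so its reads are uncertain. The outer membrane protein *Slc25a46* fell by 0.15 ± 0.05 on the log2 scale (adjusted p = 0.0384). The orphans *Slc25a43* (-0.07) and *Slc25a53* (-0.16) and the uncoupling-protein relatives *Slc25a14* (-0.14) and *Slc25a30* (-0.0016) did not pass. Leaving out 1 library ended the calls on *Slc25a36* (shControl 1 or 2, sh*Ppargc1b* 2 or 3, adjusted p = 0.0547 to 0.0993), *Slc25a35* (shControl 1 or 2 or sh*Ppargc1b* 2, 0.0537 to 0.0556) and *Slc25a46* (shControl 2 or 3, sh*Ppargc1b* 1 or 3, or IFN-β-treated sh*Ppargc1b* 3, 0.0519 to 0.16).

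**Figure D2:**
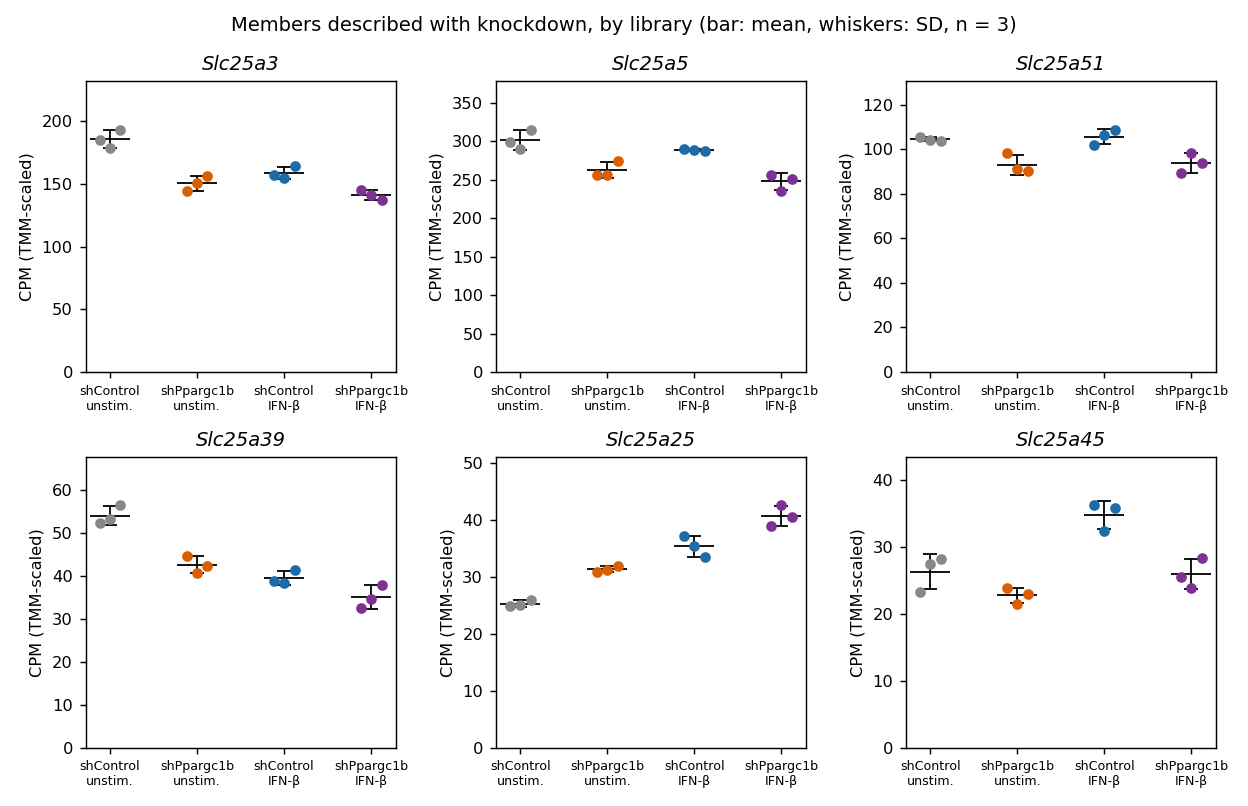
TMM-scaled CPM of 6 members in each of the 12 libraries (points), with the mean (bar) and SD (whiskers) of each group of 3. *Slc25a3*, *Slc25a5*, *Slc25a51* and *Slc25a39* are lower in sh*Ppargc1b* than in shControl libraries under both treatments, *Slc25a25* is higher, and *Slc25a45* separates with IFN-β only.

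With IFN-β present in both arms, sh*Ppargc1b* DCs again had less *Slc25a3*, *Slc25a4* and *Slc25a5*, and the aspartate/glutamate carriers *Slc25a12* and *Slc25a13* moved in opposite directions. Of 39 members 11 passed the test, 8 lower and 3 higher, against 24.2% of all tested genes (11.5% higher and 12.7% lower). *Slc25a3*, *Slc25a4*, *Slc25a5*, *Slc25a12*, *Slc25a39*, *Slc25a44*, *Slc25a45* and *Slc25a51* fell, and *Slc25a13*, *Slc25a25* and *Slc25a33* rose. The median log2 change was -0.06 over the members and -0.01 over all tested genes. The groups did not overlap in 5 members that were higher (18% of all tested genes) and 13 that were lower (20.7%), or 38.7% of all tested genes either way. Without IFN-β-treated shControl library 3, 7 members were called.

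*Slc25a12* gave the clearest difference. It measured 114, 117 and 117 CPM in the IFN-β-treated shControl libraries and 91.2, 88.1 and 93.1 in the sh*Ppargc1b* libraries (-0.35 ± 0.04, adjusted p = 2.22e-05). *Slc25a13* went the other way, at 24, 22.4 and 24.9 against 28.1, 28 and 27.7 (0.23 ± 0.06, adjusted p = 0.0119). Neither pair of groups overlapped, and both genes encode calcium-activated carriers that send aspartate out of the matrix in exchange for glutamate, a step of the malate-aspartate shuttle. *Slc25a22* measured -0.18 ± 0.07 and lay just above the threshold (adjusted p = 0.0526), although its groups did not overlap and 5 of the other settings and 2 of the library omissions called it lower. The call on *Slc25a13* was lost without shControl library 2 (adjusted p = 0.0789).

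Other members called lower with IFN-β came from several classes. *Slc25a45*, of the carnitine branch, measured 36.2, 32.3 and 35.7 CPM in shControl and 25.5, 23.9 and 28.3 in sh*Ppargc1b* libraries (-0.42 ± 0.08, adjusted p = 0.000988), the largest fall of this comparison. *Slc25a5* measured 289, 289 and 288 against 256, 236 and 251 (-0.22 ± 0.04, adjusted p = 0.00175). *Slc25a44*, which carries branched-chain amino acids, measured 37.7, 37.6 and 39.8 against 31.2, 34.6 and 33.7 (-0.21 ± 0.06, adjusted p = 0.0112). In each of these the groups did not overlap. *Slc25a3* fell by 0.17 ± 0.04 (adjusted p = 0.00923) and *Slc25a51* by 0.17 ± 0.05 (adjusted p = 0.0113) on the log2 scale.

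The remaining falls depended on most of the libraries. *Slc25a39* fell by 0.18 ± 0.06 on the log2 scale (adjusted p = 0.0428), and leaving out any of 10 of the 12 libraries ended the call (adjusted p up to 0.144). *Slc25a4* fell by 0.15 ± 0.05 (adjusted p = 0.0415), and any of 9 libraries ended it (adjusted p up to 0.0923).

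Of the members called higher, *Slc25a33*, a mitochondrial pyrimidine nucleotide carrier, measured 2.59, 2.21 and 1.62 CPM in the IFN-β-treated shControl libraries and 3.24, 3.73 and 2.90 in the sh*Ppargc1b* libraries. All knockdown libraries were above all controls (0.64 ± 0.16, adjusted p = 0.0101), but the call was lost without shControl library 3, the lowest (adjusted p = 0.0659). *Slc25a25* measured 37.2, 35.5 and 33.6 against 39, 42.6 and 40.6 (0.20 ± 0.05, adjusted p = 0.00791), lost without shControl library 3 (adjusted p = 0.065) or sh*Ppargc1b* library 2 (0.05005, just past the threshold). Among the 28 members without a call, *Slc25a29* had the largest estimate at 0.67 ± 0.28 (adjusted p = 0.0959), and the others lay between -0.22 (*Slc25a2*) and 0.30 (*Slc25a42*).

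The comparisons of sh*Ppargc1b* with shControl under the 2 treatments share no library. There were 7 members called in both, each in the same direction: *Slc25a3*, *Slc25a4*, *Slc25a5*, *Slc25a12*, *Slc25a39* and *Slc25a51* lower and *Slc25a25* higher. They made up 53.8% of the 13 called without IFN-β and 63.6% of the 11 called with it, or 17.9% of the members, against 15.2% of all tested genes called in both in 1 direction. Over all tested genes these were 2770, out of 4295 called without IFN-β and 4414 called with it. No member was called in opposite directions, and 22 were called in neither. *Slc25a3* and *Slc25a5* kept their calls in both comparisons under every setting tried and without any 1 library.

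**Figure D3:**
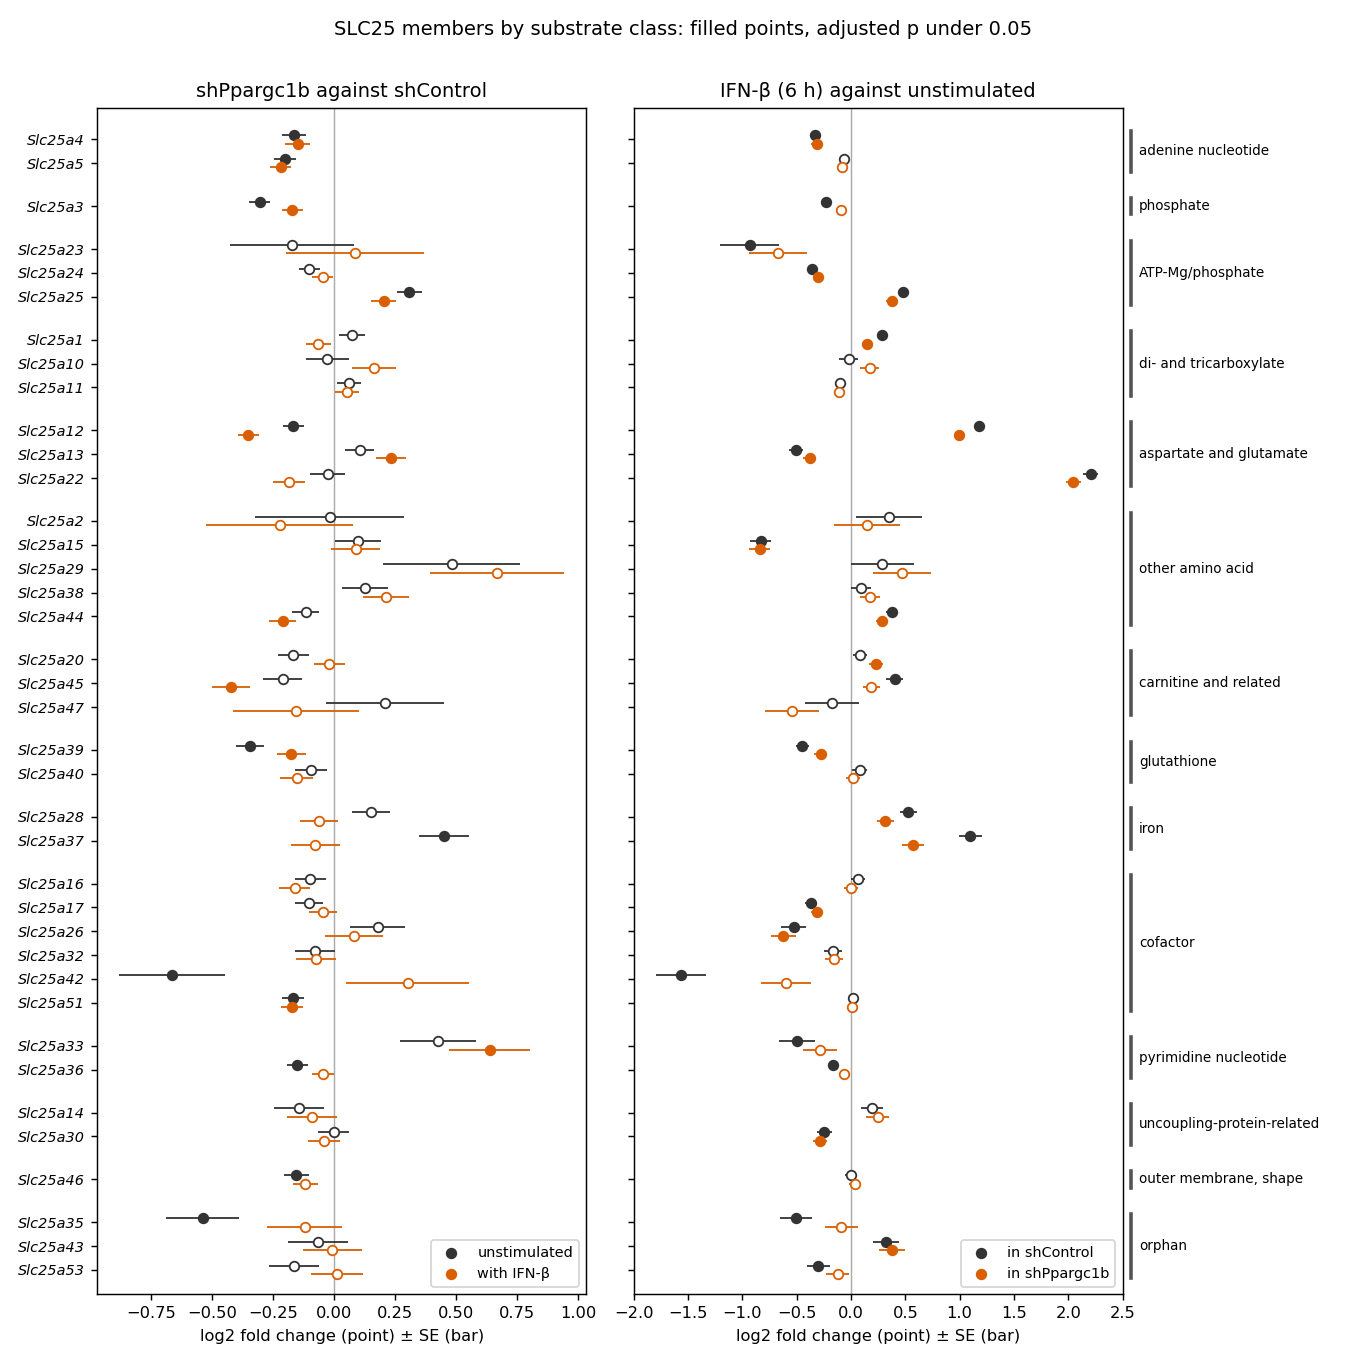
Log2 fold changes of 38 of the 39 members (points) with SE (bars), grouped by substrate class: the left panel sets sh*Ppargc1b* against shControl DCs, unstimulated (black) and with IFN-β (orange), and the right panel sets IFN-β against unstimulated in shControl (black) and sh*Ppargc1b* (orange) DCs. Filled points have an adjusted p under 0.05, and the x axes differ between the panels; *Slc25a22*, *Slc25a12* and *Slc25a37* lie farthest to the right with IFN-β.

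IFN-β changed more members than the knockdown did, in both directions, and its largest rises were in glutamate and iron carriers. In shControl DCs 24 of 39 members passed the test, 9 higher and 15 lower, against 48.2% of all tested genes (23.7% higher and 24.6% lower). The mitochondrial glutamate carrier *Slc25a22* rose 4.61-fold, *Slc25a12* 2.26-fold and *Slc25a37* 2.14-fold, while *Slc25a42* fell to 0.338 times its unstimulated level. In sh*Ppargc1b* DCs 18 members passed, 10 higher and 8 lower, against 42.6% of all tested genes (21.4% higher and 21.2% lower). Unstimulated and IFN-β-treated libraries did not overlap in 10 higher and 17 lower members in shControl (27.2% and 29.4% of all tested genes, 56.7% in all) and in 13 higher and 11 lower members in sh*Ppargc1b* DCs (24.7% and 25.4%, 50.1% in all). The splits of calls depend on the scaling: with library totals in place of TMM, 6 members were called higher and 23 lower in shControl and 4 higher and 22 lower in sh*Ppargc1b* DCs, while the median of all tested genes moved from -0.03 to -0.27 and from -0.02 to -0.22.

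*Slc25a22*, at chromosome 7 from 141429744 to 141437892 on the minus strand, encodes a carrier that brings glutamate into the matrix with a proton. It measured 15.8, 18.7 and 17.3 CPM in unstimulated shControl libraries and 76.9, 80.0 and 82.1 with IFN-β (2.21 ± 0.07, adjusted p = 4.69e-13). In sh*Ppargc1b* DCs it measured 15.1, 18.4 and 17.3 without and 67.7, 71.2 and 71.5 with IFN-β (2.05 ± 0.07, adjusted p = 1.47e-12). The next largest rise was that of *Slc25a12*. The glutamate carrier paralog *Slc25a18* stayed at 0 to 6 counts in every library.

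Promoter windows from RefSeq (GRCm38.p6, 250 bases before to 50 after each annotated start) were at hand for 30 of the 39 members, as 39 windows among 32851 in all. The interferon-stimulated response element (ISRE), the sequence to which interferon-activated transcription factors bind, was searched on both strands as a pair of GAAA blocks with any 2 bases between them. It was found in 1 window each of *Slc25a22* and *Slc25a15*, which is 5.13% of the member windows against 3.44% of all windows. The stretches from 130 to 31 bases before these starts are shown because they belong to the member with the largest rise and to an ornithine carrier that fell. Both are given 5′ to 3′ on the minus strand with the matched letters in capitals.
*Slc25a22* (chr7:141435406-141435505): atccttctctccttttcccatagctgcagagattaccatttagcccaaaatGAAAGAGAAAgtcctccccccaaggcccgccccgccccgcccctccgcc
*Slc25a15* (chr8:22398652-22398751): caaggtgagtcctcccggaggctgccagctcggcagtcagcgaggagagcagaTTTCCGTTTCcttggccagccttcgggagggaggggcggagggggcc
In *Slc25a22* the match began 79 bases before the start of a shorter transcript, inside the first intron of the longer ones, and the other 2 of its 3 windows held none. In *Slc25a15* the match lay on the other strand, 77 bases before the start of 1 of its 2 windows. That stretch overlaps an annotated exon of another gene, *1810012K16Rik*. A match of letters is a description and shows neither binding nor use of that start, and counts per gene do not tell the transcripts apart.

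*Slc25a15*, which exchanges ornithine and citrulline for the urea cycle, fell with IFN-β. It measured 15, 13.7 and 13.7 CPM in unstimulated shControl libraries and 8.34, 7.62 and 7.88 with IFN-β (-0.83 ± 0.10, adjusted p = 3.5e-06). The sh*Ppargc1b* values were 15, 16.7 and 13.6 without and 7.48, 9.62 and 8.19 with IFN-β (-0.84 ± 0.10, adjusted p = 3.85e-06). In the same class *Slc25a44* rose in both arms (0.38 ± 0.06 in shControl and 0.28 ± 0.06 in sh*Ppargc1b* DCs, adjusted p = 3.6e-05 and 0.000652), and *Slc25a2* (0.35 and 0.15), *Slc25a29* (0.29 and 0.47) and *Slc25a38* (0.09 and 0.18) passed in neither.

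The aspartate/glutamate carriers diverged with IFN-β. *Slc25a12*, at chromosome 2 from 71271063 to 71367749, measured 51.4, 49.5 and 52.9 CPM in unstimulated shControl libraries and 114, 117 and 117 with IFN-β (1.18 ± 0.04, adjusted p = 2.57e-12). Its sh*Ppargc1b* libraries went from 46.3, 43.3 and 47.2 to 91.2, 88.1 and 93.1 (0.99 ± 0.04, adjusted p = 3.03e-11). *Slc25a13* fell from 32.0, 32.6 and 36.8 to 24, 22.4 and 24.9 in shControl DCs (-0.51 ± 0.06, adjusted p = 4.59e-06) and from 34.7, 37.7 and 36.7 to 28.1, 28 and 27.7 in sh*Ppargc1b* DCs (-0.38 ± 0.06, adjusted p = 9.99e-05). The class, *Slc25a22* included, summed to 99.2 to 107 CPM without and 215 to 224 with IFN-β in shControl DCs, and to 96.1 to 101 and 187 to 192 in sh*Ppargc1b* DCs.

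Ratios of related carriers within a library do not depend on the scaling, and 4 of them are plotted; the pairs were chosen after their values were seen. Per kilobase, *Slc25a12* stood at 0.743 to 0.830 times *Slc25a13* in unstimulated shControl and 0.595 to 0.691 times in unstimulated sh*Ppargc1b* libraries. With IFN-β the ratio was 2.42 to 2.7 in shControl and 1.62 to 1.74 in sh*Ppargc1b* libraries, so *Slc25a12* passed from below to above its paralog and none of the 4 groups overlapped. *Slc25a22* to *Slc25a13* was 0.299 to 0.363 and 0.276 to 0.311 in the same unstimulated groups, which overlapped, and 2.03 to 2.27 and 1.53 to 1.64 with IFN-β, which did not. The ratio of *Slc25a24* to *Slc25a25* also separated all 4 groups: 9.93 to 10.8 in unstimulated shControl, 7.52 to 8.06 in unstimulated sh*Ppargc1b*, 5.48 to 6.15 in shControl with IFN-β and 4.57 to 5.19 in sh*Ppargc1b* with IFN-β. *Slc25a36* to *Slc25a33* was 8.02 to 8.76 and 5.20 to 6.21 without IFN-β in shControl and sh*Ppargc1b* libraries, and 8.29 to 13.9 and 6.05 to 7.34 with it.

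**Figure D4:**
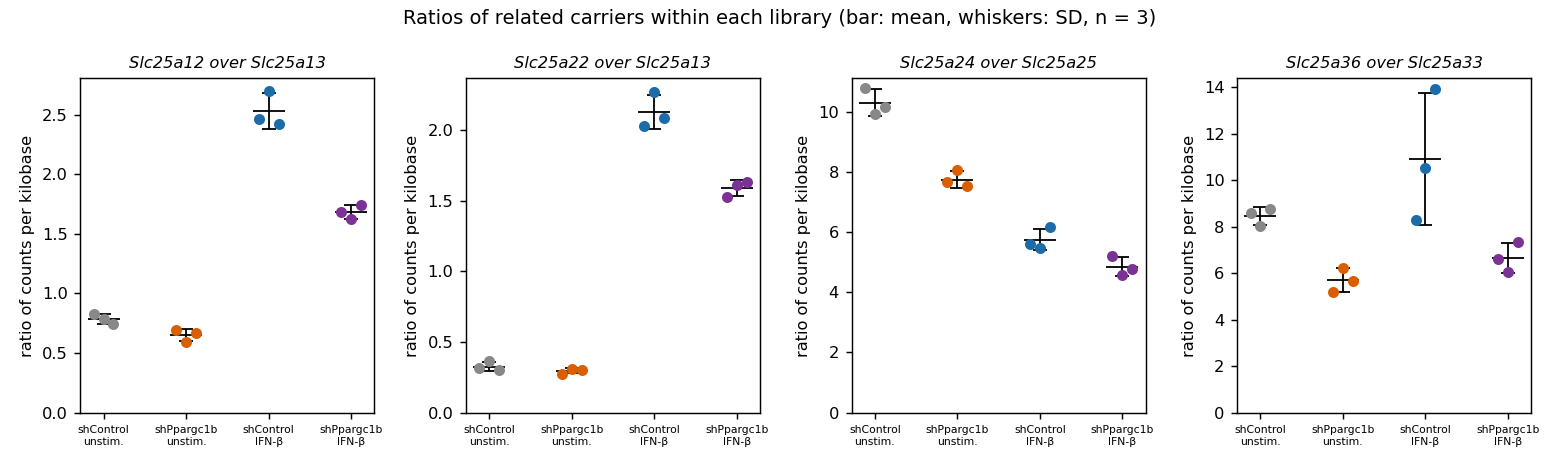
Ratio of counts per kilobase of 2 related carriers within each library (points), with the mean (bar) and SD (whiskers) of 3 libraries per group; each panel has its own axis from 0. With IFN-β *Slc25a12* reaches 2.42 to 2.7 times *Slc25a13* in shControl and 1.62 to 1.74 times in sh*Ppargc1b* libraries, and in the third the 4 groups do not overlap.

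Both mitoferrins rose with IFN-β. *Slc25a37*, at chromosome 14 from 69241848 to 69285112, measured 174, 194 and 175 CPM in the IFN-β-treated shControl libraries, above the 84.7, 93.6 and 75.3 without it (1.10 ± 0.10, adjusted p = 2.78e-07). The sh*Ppargc1b* libraries gave 122, 121 and 104 without and 147, 203 and 165 with IFN-β (0.57 ± 0.10, adjusted p = 0.000294). *Slc25a28* measured 11.2, 12.2 and 11.8 without and 16.9, 17.3 and 16.6 with IFN-β in shControl libraries (0.53 ± 0.08, adjusted p = 4.13e-05) and rose by 0.32 ± 0.08 in sh*Ppargc1b* DCs (adjusted p = 0.00392). The globin, glycophorin and other erythroid markers listed held 0 to 15 counts in any library.

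Among cofactor carriers the called changes with IFN-β were mostly falls. *Slc25a42* measured 1.94, 2.93 and 2.68 CPM in unstimulated shControl libraries and 1.17, 0.643 and 0.774 with IFN-β (-1.56 ± 0.23, adjusted p = 4.3e-05). The sh*Ppargc1b* libraries measured 1.32, 1.81 and 1.62 without and 1.28, 0.876 and 0.997 with IFN-β (-0.60 ± 0.23), which stopped short of the threshold (adjusted p = 0.0506). *Slc25a26*, which imports S-adenosylmethionine for methylation of mitochondrial RNA, fell from 4.90, 4.32 and 4.84 to 3.22, 3.27 and 3.25 in shControl (-0.53 ± 0.12, adjusted p = 0.00139) and from 5.30, 5.31 and 5.30 to 3.95, 2.84 and 3.54 in sh*Ppargc1b* DCs (-0.63 ± 0.12, adjusted p = 0.000384). The peroxisomal carrier *Slc25a17* fell by 0.37 ± 0.06 and 0.31 ± 0.06 (adjusted p = 6.59e-05 and 0.000391), and *Slc25a16* (0.06 and -0.0012), *Slc25a32* (-0.16 and -0.16) and *Slc25a51* (0.02 and 0.01) passed in neither. With a block for runs of library codes *Slc25a32* was called lower in both (adjusted p = 0.0363 and 0.0485). The call that *Slc25a42* missed was made without any of 5 libraries (adjusted p = 0.0326 to 0.0475) and in 4 other settings (0.00969 to 0.0433).

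The calcium-regulated ATP-Mg/phosphate carriers split here as well. *Slc25a23*, the least abundant, measured 1.70, 2.54 and 1.93 CPM in unstimulated shControl libraries and 1.12, 1.34 and 0.802 with IFN-β (-0.93 ± 0.27, adjusted p = 0.00918), a call lost without IFN-β-treated shControl library 3 (adjusted p = 0.0617). In sh*Ppargc1b* DCs it measured -0.67 ± 0.27 (adjusted p = 0.0544). Without IFN-β-treated sh*Ppargc1b* library 2 the adjusted p was 0.0172, and in 4 other settings, the block among them (0.0188), it was 0.00564 to 0.036. *Slc25a24* measured 91.1, 84.8 and 90.2 CPM with IFN-β in shControl libraries, below its unstimulated values, and 88.3, 85.1 and 84.3 in sh*Ppargc1b* libraries (-0.36 ± 0.04 and -0.30 ± 0.04, adjusted p = 4.24e-06 and 3.31e-05). *Slc25a25* rose by 0.48 ± 0.05 and 0.38 ± 0.05 (adjusted p = 1.16e-06 and 1.89e-05), and was the 1 member called higher in all 4 comparisons, which share groups of libraries. A cAMP response element, searched as TGACGTCA, was found in 1 of the 3 promoter windows of *Slc25a25* and in *Slc25a36* (5.13% of member windows, 1.79% of all windows). *Slc25a36* fell with the knockdown without IFN-β and with IFN-β in shControl DCs. That *Slc25a25* start is an internal one, as the gene spans chromosome 2 from 32414487 to 32451445 on the minus strand. Here too a match of letters shows neither binding nor use of the start. The stretch from 200 to 101 bases before that *Slc25a25* start, on the minus strand with the match in capitals, is shown as it belongs to that member.
*Slc25a25* (chr2:32424167-32424266): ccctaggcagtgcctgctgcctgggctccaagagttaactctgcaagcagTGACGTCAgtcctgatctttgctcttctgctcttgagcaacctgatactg

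**Figure D5:**
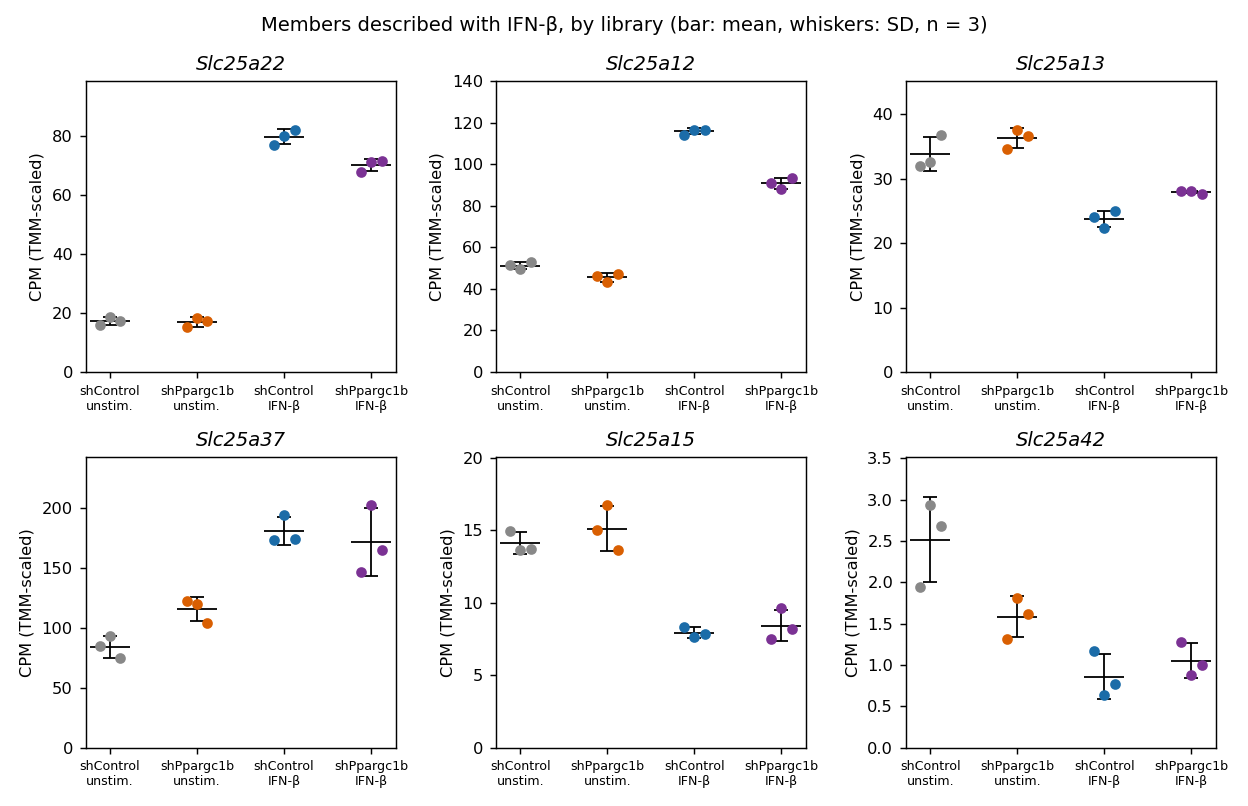
TMM-scaled CPM of 6 members in each of the 12 libraries (points), with the mean (bar) and SD (whiskers) of each group of 3. *Slc25a22*, *Slc25a12* and *Slc25a37* lie higher with IFN-β, *Slc25a13*, *Slc25a15* and *Slc25a42* lower, and *Slc25a12* and *Slc25a13* differ between sh*Ppargc1b* and shControl libraries in opposite directions with IFN-β.

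With IFN-β, *Slc25a5* did not pass in shControl (-0.06 ± 0.04, adjusted p = 0.263) or sh*Ppargc1b* DCs (-0.08 ± 0.04, adjusted p = 0.161). *Slc25a4* measured 64.6, 56.7 and 62.2 CPM without and 48.5, 48.0 and 49.3 with IFN-β in shControl libraries (-0.33 ± 0.05, adjusted p = 4.62e-05). In sh*Ppargc1b* libraries it measured 52.4, 54.2 and 57.1 without and 43.1, 43.8 and 44.6 with IFN-β (-0.32 ± 0.05, adjusted p = 9.61e-05). *Slc25a3* fell by 0.23 ± 0.04 in shControl DCs (adjusted p = 0.000415) and measured -0.09 ± 0.04 in sh*Ppargc1b* DCs (adjusted p = 0.10). *Slc25a39* fell by 0.45 ± 0.06 and by 0.28 ± 0.06 (adjusted p = 1.07e-05 and 0.00121), and *Slc25a40* passed in neither (0.08 and 0.02).

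*Slc25a1* rose in shControl DCs (0.29 ± 0.05, adjusted p = 0.000272) and in sh*Ppargc1b* DCs (0.15 ± 0.05, adjusted p = 0.0295), the latter lost without unstimulated library 1 or 2 or IFN-β-treated library 2 or 3 (adjusted p = 0.0835 to 0.103). *Slc25a10* (-0.02 and 0.17) and *Slc25a11* (-0.10 and -0.11) did not pass. *Slc25a45* rose in shControl DCs (0.40 ± 0.08, adjusted p = 0.000529) and missed the threshold in sh*Ppargc1b* DCs (0.19 ± 0.08, adjusted p = 0.0703, 0.0361 or 0.0293 without unstimulated shControl library 1 or IFN-β-treated sh*Ppargc1b* library 2, and 0.0405 with the block). *Slc25a20*, the carrier of acylcarnitines for fatty acid oxidation, rose by 0.23 ± 0.06 in sh*Ppargc1b* DCs (adjusted p = 0.00822) and measured 0.08 ± 0.06 in shControl DCs (adjusted p = 0.304). *Slc25a47* passed in neither (-0.18 and -0.54).

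The orphan carrier *Slc25a43* measured 7.44, 8.40 and 8.77 CPM without and 9.30, 11.7 and 11.0 with IFN-β in sh*Ppargc1b* libraries (0.38 ± 0.12, adjusted p = 0.0195). In shControl DCs it rose by 0.32 ± 0.12 (adjusted p = 0.0397). *Slc25a53* (-0.30 ± 0.10, adjusted p = 0.0264) and *Slc25a35* (-0.51 ± 0.15, adjusted p = 0.0112) fell in shControl DCs and did not pass in sh*Ppargc1b* DCs (-0.12 and -0.09). *Slc25a36* (-0.17 ± 0.04, adjusted p = 0.00458) and *Slc25a33* (-0.50 ± 0.16, adjusted p = 0.0205) fell in shControl DCs, and measured -0.06 and -0.28 in sh*Ppargc1b* DCs. *Slc25a30* fell in both (-0.24 ± 0.07 and -0.29 ± 0.07, adjusted p = 0.0058 and 0.00224), and *Slc25a14* (0.19 and 0.24) and *Slc25a46* (-0.0012 and 0.04) passed in neither.

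Several of these smaller calls rested on single libraries. In sh*Ppargc1b* DCs the rise of *Slc25a43* was lost without unstimulated library 1 (adjusted p = 0.0741) or IFN-β-treated library 2 or 3 (0.0732 and 0.0548), and in shControl DCs without any of 6 libraries (0.0548 to 0.222). Any of 5 shControl libraries (all but unstimulated library 3) ended the call on *Slc25a53* (0.0543 to 0.121). IFN-β-treated shControl library 3 ended those on *Slc25a35* (0.0828) and *Slc25a33* (0.143), unstimulated shControl library 2 also that on *Slc25a33* (0.0555), and IFN-β-treated shControl library 1 and library 2 those on *Slc25a36* (0.0539) and *Slc25a30* (0.0618). Leaving out a library also made calls: in sh*Ppargc1b* DCs with IFN-β *Slc25a10* was called higher without unstimulated sh*Ppargc1b* library 3 (0.016), and *Slc25a11* and *Slc25a47* lower without IFN-β-treated sh*Ppargc1b* library 2 (0.0279) and library 1 (0.0283). For the knockdown with IFN-β, *Slc25a16* was called lower without IFN-β-treated sh*Ppargc1b* library 2 (0.0152), *Slc25a40* and *Slc25a46* lower without IFN-β-treated shControl library 1 (0.0462 and 0.0429), *Slc25a46* also with the block (0.0291), and *Slc25a29* higher without unstimulated shControl library 1 (0.0369).

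The IFN-β comparisons in shControl and sh*Ppargc1b* DCs share no library. The test called 16 members in both arms, 8 higher and 8 lower, each in 1 direction. They made up 66.7% of the 24 called in shControl and 88.9% of the 18 called in sh*Ppargc1b* DCs, or 41.0% of the members, against 37.4% of all tested genes. Over all tested genes 6811 were called in both arms in 1 direction, out of 8793 called in shControl and 7760 in sh*Ppargc1b* DCs. Whether the response itself differed between the arms was tested with an interaction term, and 0 of 39 members passed in edgeR, with 4 at an unadjusted p under 0.05, while 0.73% of all tested genes were called (0.0603% higher and 0.669% lower). DESeq2's Wald test called 1 member. The 4 were *Slc25a37* (-0.53 ± 0.14, adjusted p = 0.122), *Slc25a12* (-0.18 ± 0.06, adjusted p = 0.222), *Slc25a42* (0.97 ± 0.33, adjusted p = 0.254) and *Slc25a3* (0.13 ± 0.06, adjusted p = 0.457).

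For *Slc25a37* the outcome of that test depended on the fit. It was called in DESeq2's test (adjusted p = 0.017), with a block for runs of library codes (adjusted p = 0.00671), without the filter on low counts (adjusted p = 1.67e-10) and without IFN-β-treated sh*Ppargc1b* library 2 (adjusted p = 0.012), which at 203 CPM was the highest of its group. Over all settings its adjusted p ran from 1.67e-10 to 0.36. The sh*Ppargc1b* to shControl difference of *Slc25a37* was 0.45 ± 0.10 without and -0.08 ± 0.10 with IFN-β.

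A set of 10 members passed in none of the 4 comparisons: *Slc25a2*, *Slc25a10*, *Slc25a11*, *Slc25a14*, *Slc25a16*, *Slc25a29*, *Slc25a32*, *Slc25a38*, *Slc25a40* and *Slc25a47*. *Slc25a4* and *Slc25a39* were called lower in all 4, which share groups of libraries, so calls across them are not independent. *Slc25a12* was the 1 member that the knockdown lowered and IFN-β raised under both conditions of each.

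Letters of 3 other elements linked to mitochondrial genes were sought in the same windows. The estrogen-related receptor half-site AAGGTCA, a site for factors that PGC-1 proteins are known to co-activate, was in 0 of 39 member windows and in 4.72% of all windows. The palindrome of NRF1, GCGC on each side of AT, was in 0 member windows and in 0.971% of all. The GABPA element CCGGAAGT was in 1 member window, that of *Slc25a20* (2.56% against 3.89% of all windows). Absence says only that these letters are not in these windows.

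Partner genes of the carriers, from lists of enzymes and channels, were counted next to them. Of 6 malate-aspartate shuttle and citrate enzymes, 5 fell with the knockdown in unstimulated DCs and 3 with IFN-β: *Acly*, which splits the citrate that SLC25A1 exports, by 0.53 ± 0.05 and 0.42 ± 0.05 on the log2 scale (adjusted p = 3.19e-06 and 3.6e-05), beside no call on *Slc25a1*. Of 3 carnitine shuttle enzymes 2 fell under both treatments, led by *Cpt1a*, the rate-limiting enzyme of fatty acid entry (-0.83 ± 0.05 and -0.63 ± 0.05, adjusted p = 2.9e-08 and 5.09e-07). Of 4 glutathione enzymes 3 rose without and 2 with IFN-β, led by *Gclc*, the catalytic subunit of the first step of glutathione synthesis (0.51 ± 0.06 and 0.37 ± 0.06, adjusted p = 8.33e-06 and 0.000212), while the glutathione carrier *Slc25a39* fell. Of 5 heme and iron genes 1 rose and 1 fell under each treatment, and the one that rose was *Alas1*, the first enzyme of heme synthesis in non-erythroid cells (0.43 ± 0.06 and 0.34 ± 0.06, adjusted p = 0.000113 and 0.000905).

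Of the 4 tested genes that share the SLC25 fold under other symbols, 2 fell without and 0 with IFN-β, the uncoupling protein gene *Ucp2* by 0.26 ± 0.07 on the log2 scale without it (adjusted p = 0.0121), and *Ucp1* was not tested at its level. Of 10 pyruvate carrier, VDAC and sideroflexin genes, 1 rose and 2 fell without IFN-β and 2 fell with it, with *Vdac1*, the main outer membrane channel, at -0.20 ± 0.05 and -0.33 ± 0.05 (adjusted p = 0.0115 and 0.000329). Of 6 nucleotide and cofactor enzymes, 1 rose and 1 fell without IFN-β and 2 fell with it, *Nadk2*, the mitochondrial NAD kinase, in both (-0.30 ± 0.08 and -0.37 ± 0.08, adjusted p = 0.0108 and 0.0032). With IFN-β itself, *Cmpk2*, a mitochondrial pyrimidine nucleotide kinase known as an interferon-stimulated gene, rose by 5.66 ± 0.16 in shControl and 5.23 ± 0.15 in sh*Ppargc1b* DCs (adjusted p = 8.34e-14 and 2.45e-13), beside the fall of the carriers *Slc25a33* and *Slc25a36* in shControl DCs. All 4 glutathione enzymes fell with IFN-β in both arms, as *Slc25a39* did.

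Some markers of cell types differed between the same groups. For the knockdown, 23.6% of all tested genes were called without IFN-β and 24.2% with it. Summed levels of the dendritic, neutrophil and proliferation lists overlapped between sh*Ppargc1b* and shControl libraries under both treatments. Those of the macrophage list overlapped only without IFN-β, and those of the mast cell or basophil list only with it. All 8 dendritic markers were measured, and 4 were higher in sh*Ppargc1b* than in shControl DCs without IFN-β and 5 with it, with summed levels of 4378 to 5182 against 5088 to 5871 CPM and of 4743 to 5734 against 5595 to 6425. Of 8 macrophage markers 2 were lower without and 3 with IFN-β (2408 to 2560 against 2394 to 2448, and 3153 to 3374 against 2933 to 3043), and 5 rose with IFN-β in each arm. Of 6 mast cell or basophil markers 2 were higher with the knockdown under both treatments (8.71 to 16.6 against 22.1 to 25.7 CPM without IFN-β, 7.64 to 14.6 against 12.8 to 21.1 with it). *S100a8* was higher in both as 1 of 7 neutrophil markers, which summed to 35.6 to 73.9 against 73.4 to 126 without and 31.3 to 76.0 against 66.7 to 121 with IFN-β, and the 5 proliferation markers, of which *Mki67* was lower without IFN-β, to 254 to 339 against 166 to 266 and 218 to 246 against 143 to 221. Of 6 lymphocyte markers 2 were tested and 0 called, and none of the 8 erythroid markers was tested, with sums under 1 CPM in every library. The part of cell composition in the changes of the carriers was not tested.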

How the data were processed

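Total RNA from 12 libraries was depleted of ribosomal RNA and sequenced as read pairs. The authors trimmed adapters with trim_galore and mapped to mm10 with STAR using GENCODE M20; the submitters' processing notes name Trim Galore 0.6.0 and STAR 2.7.8a, and the methods another STAR version. The deposited values were raw counts per gene for each library, with no normalization.

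Counts were tested with edgeR 4.0.16 (R 4.3.3): filterByExpr (minimum count 10, minimum total 15) kept 18228 of 55471 genes with 99.96% of the counts, TMM factors ran from 0.914 to 1.09, and 1 mean per group was fitted over all 12 libraries (quasi-likelihood F-test, Benjamini-Hochberg, threshold 0.05). The fit was first tested on simulated data. At 49919648 to 77726101 counts per library, members held 21 to 20439 counts. Replicate numbers follow accession order, and libraries with the same number form 1 run of 4 consecutive library codes. The main fit did not pair them. A block for these runs was fitted as an alternative. Exon lengths, overlaps and positions came from GENCODE M21 (GRCm38), in which all 39 members had the same symbol, and promoters from RefSeq.

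Substrate classes, partner lists and markers were taken from general knowledge. Members and lists were chosen with earlier results of these data known. Of the members, 1 is counted but not reported by name here, as is 1 partner gene, and the figures show the other 38. Values in every library are given for the 4 largest called rises and falls of each comparison, for the 3 highest levels per kilobase, and for others chosen after their values were seen. Alternatives were DESeq2 1.42.0 size factors, library totals, no filter on low counts, DESeq2's Wald test, the 2 groups alone, a block for runs of library codes, membership by filterByExpr and each library left out.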

Additional observations from a re-analysis of the deposited data

How the results depend on the processing

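Of 3471 pairs of a member's fold change and an alternative, 3291 kept their side of the threshold, 113 lost a call, 60 gained one and 7 turned direction with a call in either fit. The 3291 include 156 that changed sign short of the threshold in both fits. All 7 that turned direction with a call came from library totals in place of TMM. With IFN-β in shControl DCs they were *Slc25a16* (-0.18), *Slc25a40* (-0.16) and *Slc25a51* (-0.22), and in sh*Ppargc1b* DCs *Slc25a1* (-0.053), *Slc25a40* (-0.18), *Slc25a46* (-0.17) and *Slc25a51* (-0.19). Of members called without IFN-β between sh*Ppargc1b* and shControl, 5 of 13 kept their call throughout, and 6 of 11 with IFN-β; for IFN-β itself 15 of 24 in shControl and 12 of 18 in sh*Ppargc1b* DCs did. Without the filter on low counts, 8 members (3 higher, 5 lower) were called for the knockdown without IFN-β instead of 13; the cause was not tested. Leaving out 1 library gave 7 to 13 calls for that comparison, 7 to 12 for the knockdown with IFN-β, 19 to 24 and 16 to 20 for IFN-β in shControl and sh*Ppargc1b* DCs, and 0 to 1 for the interaction; the lowest, 7, came without unstimulated sh*Ppargc1b* library 2 and without IFN-β-treated shControl library 3, and 8 were called without unstimulated shControl library 2 or sh*Ppargc1b* library 3. The interaction had 1 call without the filter, 1 with DESeq2's Wald test and 1 with the block, each *Slc25a37*.

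The labels give no replicate numbers to pair by. A block for runs of 4 consecutive library codes, each with 1 library of every group and not called a batch by the labels, gave 14, 13, 25 and 21 calls in the order above. Deviations of libraries in the same run correlated across genes at -0.0103 to 0.336 (median 0.21, 18 pairs), and those in different runs at -0.35 to 0.133 (median -0.0865, 36 pairs). Members with few counts, such as *Slc25a29*, *Slc25a47*, *Slc25a2* and *Slc25a42*, had standard errors of 0.22 to 0.31 for the knockdown without IFN-β, so changes of the size seen in abundant carriers were not detectable there.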
